A study of Mus musculus with 8 samples.

Results

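The genes described are those with array symbols for macrophage, major histocompatibility complex (MHC) and chemokine products: MHC genes (H2-), complement C1q, Fc receptors, CC and CXC chemokines, interferon-induced genes, interferon regulatory factors, Toll-like receptors, lysozymes, the macrophage growth factor gene Csf1 and its receptor, and Cd68, Cd14, Cd74 and Mrc1. The symbol pattern took 129 of the 18097 genes of the array table. The array software gives each signal a detection p-value against negative control beads, and genes were analysed that had one below 0.01 on 4 or more of the 8 arrays. This left 45 of the 129, among 8324 genes in the whole table that met the same condition. The rule used the names and the detection p-values, and not the difference between the genotypes, but it was set with earlier results of these data known.

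Total RNA from whole testes at 17.5 days post partum (dpp) was measured on single-colour Illumina BeadChips, with 1 array per male and 4 males per genotype. XEOSry males had an XO karyotype and carried transgenes for Sry, which makes the XO animal male, and Eif2s3y, which is needed for spermatogonia to proliferate, so that they lacked every other Y gene, the Zfy genes among them. XEZ2OSry males had the same karyotype and the same Sry and Eif2s3y transgenes, and in addition an X-linked transgene for the zinc finger gene Zfy2. All males were on the MF1 background, and neither genotype is a normal XY male. The labels give 4 males per genotype, whereas the methods of the study give 3, and all 8 arrays were used. The labels' animal identifiers begin alike in the 4 XEOSry males and otherwise in the 4 XEZ2OSry males, so that genotype and whatever these identifiers stand for cannot be told apart.

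The interstitium of the testis holds resident macrophages, which lie against the Leydig cells and the vessels, take up dying cells and debris, and depend on colony stimulating factor 1. MHC class I molecules display peptides from inside a cell on nearly all body cells, and class II molecules display peptides from outside on antigen-presenting cells such as macrophages, dendritic cells and B cells. Chemokines are small secreted proteins that direct leukocytes, C1q starts the classical complement pathway, and the interferon and Toll-like receptor genes serve the detection of infection.

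As a check of the arrays, Zfy2 itself was not detected on any array, at 6.05 to 6.20 in XEOSry and 6.15 to 6.19 in XEZ2OSry on the log2 scale, so that the transgene could not be seen in these signals. The X-linked gene Hprt1 was at 9.82 to 10.87 in XEOSry and 6.90 to 7.07 in XEZ2OSry, which separates the arrays by genotype label (difference 3.46, adjusted p = 0.000186, limma). Between 8063 and 8434 genes were detected per array. The kept markers of autosomal pachytene spermatocyte genes, 19 of them, had a median difference of -0.91, and their mean signal ran from 9.15 to 10.43 over the XEOSry males and from 10.34 to 11.21 over the XEZ2OSry males. Of these 19, 14 were more than 1.5-fold lower in XEOSry (73.7%, against 6.63% of all kept genes). No gene of that list passed an adjusted p of 0.05 in limma, and the smallest was 0.0798.

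None of the 45 kept members passed an adjusted p of 0.05 in limma, in either direction. Among all kept genes, 2 passed with the higher mean in XEOSry (0.024%) and 3 with the lower (0.036%). At an unadjusted p under 0.05 there were 5 members with the higher mean in XEOSry (11.1% of the kept members, against 12.9% of all kept genes) and 4 with the lower mean (8.89%, against 12%). The former were Mrc1, Cxcl4, C1qbp, Cxcl16 and H2-M3, and the latter Ccl27, Fcgr3, Ccl25 and Irf3. Adjusted p-values of the members ran from 0.112 to 0.979. The count of 0 depended on single males. Without XEOSry male 4, Ccl27 passed as 1 of 396 genes in all, with the lower mean, as did 3.08% of all kept genes. Without XEZ2OSry male 4, Ccl25 and Fcgr3 passed with the lower mean (4.79% of all kept genes) and Mrc1 with the higher (1.44%), among 519. Array weights give less weight to arrays that deviate. With them, Ccl27, Fcgr3 and Irf3 passed with the lower mean (5.07% of all kept genes) and H2-M3 and Mrc1 with the higher (2.45%), among 626 genes.

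The differences were small for most members. More than a 1.5-fold difference was seen for 1 member with the higher mean in XEOSry, Ccl7 (2.22%, against 0.973% of all kept genes; 0 members without XEOSry male 1 and 5 without XEOSry male 4), and for 2 with the lower mean, Ccl27 and Fcgr3 (4.44%, against 6.63%). The same 2, Ccl27 and Fcgr3, were the kept members whose 4 XEOSry values all lay below the 4 XEZ2OSry values, which also held for 4.58% of all kept genes. No kept member lay wholly above in XEOSry, compared with 6.34% of all kept genes. Of the members not kept, Fcgr4 and H2-T24 lay wholly below and Tlr1, Tlr3 and Tlr8 wholly above, at signals that were not detected on any array. The mean was higher in XEOSry for 37 of the 45 (82.2%), as it was for 62% of all kept genes. The median difference over the kept members was 0.12, beside 0.07 over all kept genes, and it was 0.04 without XEZ2OSry male 2 and 0.20 without XEZ2OSry male 4. The members also scattered more between animals of 1 genotype, with a median SD of 0.234 for the kept members and 0.189 for all kept genes. In whole testis RNA, fewer cells of a type and less RNA per cell cannot be told apart.

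**Figure D1:**
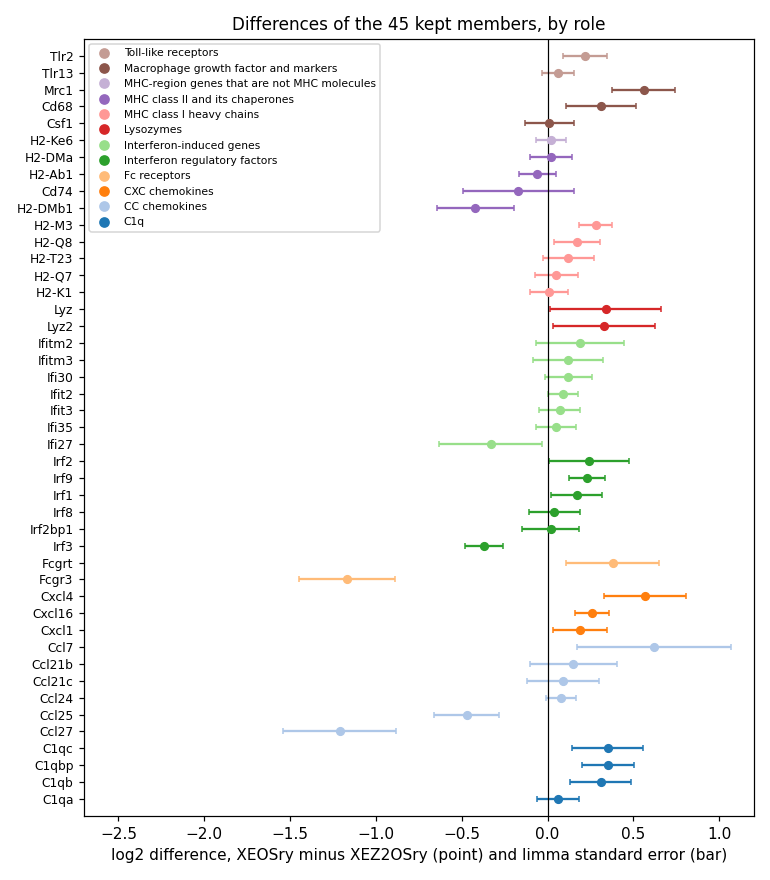
Each point is the log2 difference of 1 of the 45 kept members, XEOSry minus XEZ2OSry (horizontal axis), coloured by role, and each bar is the limma standard error (4 males per genotype). Of the points, 37 lie to the right of 0, and Ccl27 at -1.21 and Fcgr3 at -1.17 stand farthest from 0.

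The markers that define a macrophage were only in part measurable here. Cd68, a lysosomal glycoprotein of macrophages, Mrc1, the mannose receptor of tissue-resident macrophages, and the 3 chains of C1q, which macrophages secrete, were detected on all 8 arrays. Cd14, the co-receptor for bacterial lipopolysaccharide, and Fcer1g, the shared signalling chain of Fc receptors, were not detected on any array. Csf1r, the receptor that macrophages need for survival, was detected on 3 arrays, at 6.74 to 7.08 in XEOSry and 6.50 to 6.96 in XEZ2OSry, and thus fell just outside the rule together with Fcgr2b, the inhibitory Fc receptor. Its ligand Csf1 was just inside, detected on 4 arrays as were Ccl24 and H2-Q8, at 6.54 to 6.76 in XEOSry and 6.41 to 7.02 in XEZ2OSry (difference 0.01, SE 0.144). Of the 129 members, 72 were not detected on any array. Among these were Ccl2, the main attractant of monocytes, and Cxcl10 and Irf7, which interferon induces strongly in many cells.

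The signal of Mrc1 was 9.57, 9.39, 9.43 and 9.0 in the 4 XEOSry males and 8.79, 8.54, 8.56 and 9.27 in the 4 XEZ2OSry males. The genotypes overlapped because XEOSry male 4 was the lowest of its genotype and XEZ2OSry male 4 the highest of its own, and the other 3 males of each were apart. The mean was 0.56 higher in XEOSry (9.35 ± 0.246 against 8.79 ± 0.34, SD, n = 4 each; SE 0.185, adjusted p = 0.132 in limma). It was 0.72 without XEZ2OSry male 4 (adjusted p = 0.0406) and 0.48 without XEZ2OSry male 2, and with 1 male left out the adjusted p reached 0.324. Cd68 had a difference of 0.31 (SE 0.203, adjusted p = 0.363), at 7.37 to 7.80 in XEOSry and 6.83 to 7.76 in XEZ2OSry, so that the genotypes overlapped, and the difference was 0.14 without XEZ2OSry male 2 (adjusted p = 0.72).

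The chains of C1q, which bind antibody and dying cells, did not separate the genotypes. C1qb was at 8.56, 8.18, 8.54 and 8.19 in XEOSry and at 7.73, 7.79, 8.37 and 8.34 in XEZ2OSry. XEZ2OSry males 1 and 2 were low, and males 3 and 4 fell among the XEOSry values. The same 2 males were lowest for C1qc, at 7.72 and 7.80, where the other 6 arrays gave 8.32 to 8.67. The differences were 0.31 for C1qb (adjusted p = 0.3), 0.35 for C1qc (adjusted p = 0.309) and 0.06 for C1qa (adjusted p = 0.776; 0.00 to 0.12 with 1 male left out). Without XEZ2OSry male 1 they were 0.20 for C1qb and 0.21 for C1qc, and without XEZ2OSry male 4 C1qc was at 0.53. The symbol pattern also took C1qbp, which despite its name encodes a mainly mitochondrial protein and no chain of C1q. Its signal was 9.27 to 9.47 in XEOSry and 8.62, 8.96, 9.03 and 9.41 in XEZ2OSry (difference 0.35, adjusted p = 0.192; 0.23 without XEZ2OSry male 2).

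Cxcl4, now named Pf4, encodes platelet factor 4, a chemokine of platelets that tissue macrophages also express. Its signal was 9.83, 9.41, 8.87 and 8.61 in XEOSry and 8.73, 8.43, 8.55 and 8.72 in XEZ2OSry. Of the XEOSry males only male 4 fell within the XEZ2OSry range, and XEZ2OSry males 1 and 4 read above it. The XEOSry males spread over a wider range than the XEZ2OSry males. The mean was 0.57 higher in XEOSry (SE 0.239, adjusted p = 0.184), and 0.36 higher without XEOSry male 1 (adjusted p = 0.278). The bases before the start sites of Mrc1 and Pf4 are shown because these genes had the greatest mean excess in XEOSry among the members typical of macrophages. The 250 bases are from RefSeq on GRCm38.p6, and capitals mark GAGGAA, a core of sites for PU.1, the transcription factor of the myeloid lineage, read on either strand (TTCCTC is its reverse complement). Positions count backwards from -1, the last base printed, and give the first base of the match.
Mrc1, chr2:14229164-14229413, plus strand: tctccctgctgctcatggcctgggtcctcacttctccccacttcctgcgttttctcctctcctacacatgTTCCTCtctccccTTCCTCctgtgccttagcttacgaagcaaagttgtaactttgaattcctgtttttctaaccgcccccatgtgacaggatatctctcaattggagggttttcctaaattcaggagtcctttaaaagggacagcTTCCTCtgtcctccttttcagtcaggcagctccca
Pf4, chr5:90772185-90772434, plus strand: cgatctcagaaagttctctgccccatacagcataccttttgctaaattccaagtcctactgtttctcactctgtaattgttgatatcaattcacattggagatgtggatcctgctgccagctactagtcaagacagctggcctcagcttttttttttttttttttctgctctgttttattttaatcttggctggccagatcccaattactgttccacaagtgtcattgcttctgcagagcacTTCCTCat
The 6 letters occurred at 3 places before Mrc1, from positions -180, -167 and -35, and at 1 place before Pf4, from position -8. They are found in 23.3% of all 32851 promoter windows of this length, and the match is a description of the letters. The windows of C1qb, C1qc and H2-M3 each held them at 1 place, and those of Lyz2, Irf3 and the Ccl25 starts held none. Sfpi1, the gene of PU.1, was itself not detected on any array.

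Among the CC chemokines, 6 of 20 were kept (median difference 0.08), and these held both the largest negative and the largest positive differences of the members. Ccl27, the cutaneous T-cell attracting chemokine, is named Ccl27a in RefSeq. Its signal was 9.40, 8.50, 8.23 and 9.69 in XEOSry and 10.30, 10.58, 10.09 and 9.71 in XEZ2OSry. The genotypes met at XEOSry male 4 and XEZ2OSry male 4 without overlapping. The mean was 1.21 lower in XEOSry on the log2 scale (8.96 ± 0.702 against 10.17 ± 0.367, SD, n = 4 each; SE 0.329, adjusted p = 0.118 in limma), or 2.32-fold. With 1 male left out, the difference ran from -1.46 without XEOSry male 4 (adjusted p = 0.0461) to -0.97 without XEOSry male 3, and the adjusted p reached 0.301. RefSeq lists Ccl27b, a near-identical copy, in the same region, and the array's probe sequence was not used here, so which copy is read is uncertain. The adjoining gene Il11ra1, the interleukin 11 receptor, was at 10.31 to 10.61 in XEOSry and 10.52 to 10.71 in XEZ2OSry (difference -0.08, adjusted p = 0.595).

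Fcgr3, the low-affinity activating receptor for IgG of macrophages and natural killer cells, had the smallest adjusted p of the members. Its signal was 9.13, 8.57, 8.26 and 9.03 in XEOSry and 10.23, 10.40, 9.82 and 9.21 in XEZ2OSry. Every XEOSry male was below every XEZ2OSry male, and again the gap was narrow at XEZ2OSry male 4. The mean was 1.17 lower in XEOSry (8.75 ± 0.405 against 9.91 ± 0.526, SD, n = 4 each; SE 0.279, adjusted p = 0.112), or 2.24-fold. Leaving out 1 male at a time gave differences from -1.40 without XEZ2OSry male 4 (adjusted p = 0.0346) to -1.0 without XEOSry male 3, with adjusted p-values up to 0.301. Of the other Fc receptors, Fcgr1, Fcgr4 and Fcer1g were not detected on any array. Fcgr4, an activating receptor like Fcgr3, read 6.17 to 6.35 in XEOSry and 6.37 to 6.61 in XEZ2OSry, so that the genotypes did not overlap at signals the array software did not part from background. Fcgr2b was at 6.59 to 7.02 in XEOSry and 6.36 to 6.70 in XEZ2OSry. Fcgrt, the neonatal Fc receptor that recycles IgG, differed by 0.38 (SE 0.272, adjusted p = 0.396), and by 0.16 without XEZ2OSry male 2 (adjusted p = 0.766).

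The sequences before Fcgr3 and Ccl27a are shown because these were the kept members whose genotypes did not overlap. RefSeq gives Fcgr3 2 start sites a few bases apart, of which the first is shown, and Ccl27a 3, of which the second, which held the most motif matches, is shown. Capitals mark the same PU.1 core and AACGG, a core of sites for the MYB family, on either strand (CCGTT is its reverse complement).
Fcgr3, chr1:171059404-171059653, minus strand: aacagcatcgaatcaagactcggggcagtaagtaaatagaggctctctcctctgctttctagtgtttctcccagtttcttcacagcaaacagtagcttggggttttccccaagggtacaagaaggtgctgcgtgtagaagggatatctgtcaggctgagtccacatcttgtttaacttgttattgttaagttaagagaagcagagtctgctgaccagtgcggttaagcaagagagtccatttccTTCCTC
Ccl27a, chr4:41774102-41774351, minus strand: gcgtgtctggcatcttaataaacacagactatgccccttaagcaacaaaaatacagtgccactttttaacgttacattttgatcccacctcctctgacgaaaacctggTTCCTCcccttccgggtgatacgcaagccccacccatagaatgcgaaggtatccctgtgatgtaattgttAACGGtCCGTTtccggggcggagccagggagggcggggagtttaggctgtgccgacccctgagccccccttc
Before Fcgr3 the PU.1 core stood at position -6 and the MYB core was not found. Before Ccl27a the PU.1 core stood at -142, and the MYB core occurred at -72 and, on the opposite strand, at -66. The other starts of Ccl27a differed: the window of the first had the PU.1 core at -67, a Y box of class II promoters at -245 and no MYB core, and that of the third had the MYB core at -198 and no PU.1 core. The MYB core is found in 14.5% of all promoter windows of this length.

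Fcgr3 and Ccl27 followed the pachytene list in part from male to male. The mean of the 19 pachytene markers was 10.16, 9.15, 9.30 and 10.43 in XEOSry and 10.97, 11.21, 10.95 and 10.34 in XEZ2OSry. Ccl27 was lowest in XEOSry males 3 and 2, intermediate in males 1 and 4 of XEOSry and male 4 of XEZ2OSry, and highest in XEZ2OSry male 2, and Fcgr3 was ordered in nearly the same way. Within XEZ2OSry, Fcgr3, Ccl27 and the list mean had the same order of males, with male 4 lowest, then males 3 and 1, and male 2 highest. Within XEOSry the orders differed. From low to high, the males were 2, 3, 1, 4 for the list mean, 3, 2, 1, 4 for Ccl27 and 3, 2, 4, 1 for Fcgr3. These 8 points share their arrays and their genotypes, and the part of the pachytene cells in the values of Fcgr3 and Ccl27 was not tested. Mrc1, in contrast, was lowest in XEZ2OSry males 2 and 3, where the list means were 11.21 and 10.95.

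**Figure D2:**
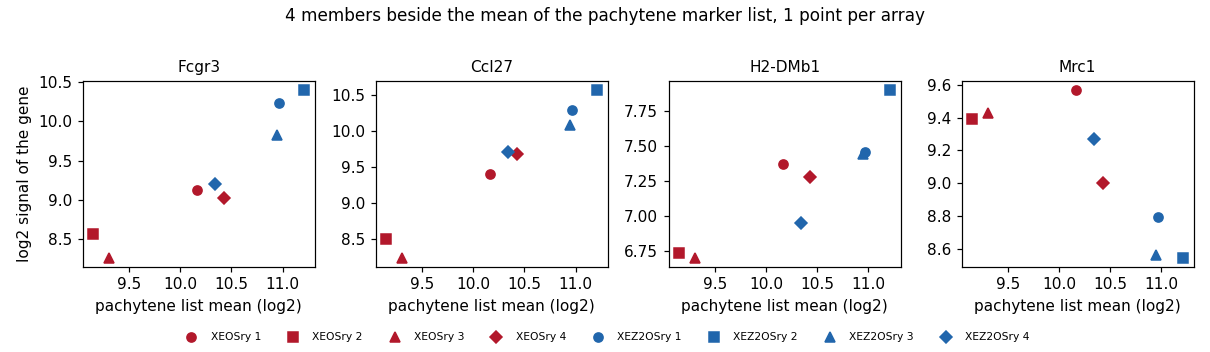
Each point is 1 array: the horizontal axis is the mean log2 signal of the 19 kept pachytene markers, the vertical axis the log2 signal of Fcgr3, Ccl27, H2-DMb1 or Mrc1 (each with its own scale), red for XEOSry and blue for XEZ2OSry. Fcgr3 and Ccl27 are lowest in XEOSry males 2 and 3, at list means of 9.15 and 9.30, and highest in XEZ2OSry male 2, at 11.21.

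Ccl25, the thymus-expressed chemokine, lay in the same direction as Ccl27. Its signal was 7.88, 7.82, 7.53 and 7.70 in XEOSry and 8.43, 8.61, 8.08 and 7.70 in XEZ2OSry. XEZ2OSry male 4 read within the XEOSry range, and the other 3 XEZ2OSry males were above all XEOSry males. The difference was -0.47 (SE 0.19, adjusted p = 0.171), and without XEZ2OSry male 4 it was -0.64 (adjusted p = 0.0469), while without XEZ2OSry male 2 it was -0.34.

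Ccl7, which attracts monocytes, had the largest excess in XEOSry, and it came from 1 male. Its signal was 9.08, 7.58, 6.86 and 6.78 in XEOSry and 7.19, 7.18, 6.70 and 6.74 in XEZ2OSry. XEOSry male 1 was the highest, male 2 was the next, and the other 6 arrays lay from 6.70 to 7.19. The difference was 0.62 (SE 0.45, adjusted p = 0.403), and it was 0.12 without XEOSry male 1. Ccl21b and Ccl21c, which guide lymphocytes and dendritic cells and are near-identical copies that the probes may not part, differed by 0.15 and 0.09 with signs that turned when 1 male was left out. Both were highest in XEOSry male 3 and lowest in XEZ2OSry male 2.

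The CXC chemokines kept were 3 of 13, all with the higher mean in XEOSry (median difference 0.26). Cxcl16, a membrane-bound chemokine that is also a scavenger receptor, was at 7.81, 7.75, 7.60 and 7.47 in XEOSry and 7.37, 7.34, 7.48 and 7.40 in XEZ2OSry. Only XEZ2OSry male 3 reached the lowest XEOSry value. The difference was 0.26 (SE 0.0988, adjusted p = 0.16). Cxcl1, a neutrophil attractant, differed by 0.19 (adjusted p = 0.459; 0.10 without XEOSry male 2). Cxcl12, the homing factor that stromal cells make, was detected on 1 array, at 7.26 to 7.73 in XEOSry and 7.04 to 7.64 in XEZ2OSry.

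**Figure D3:**
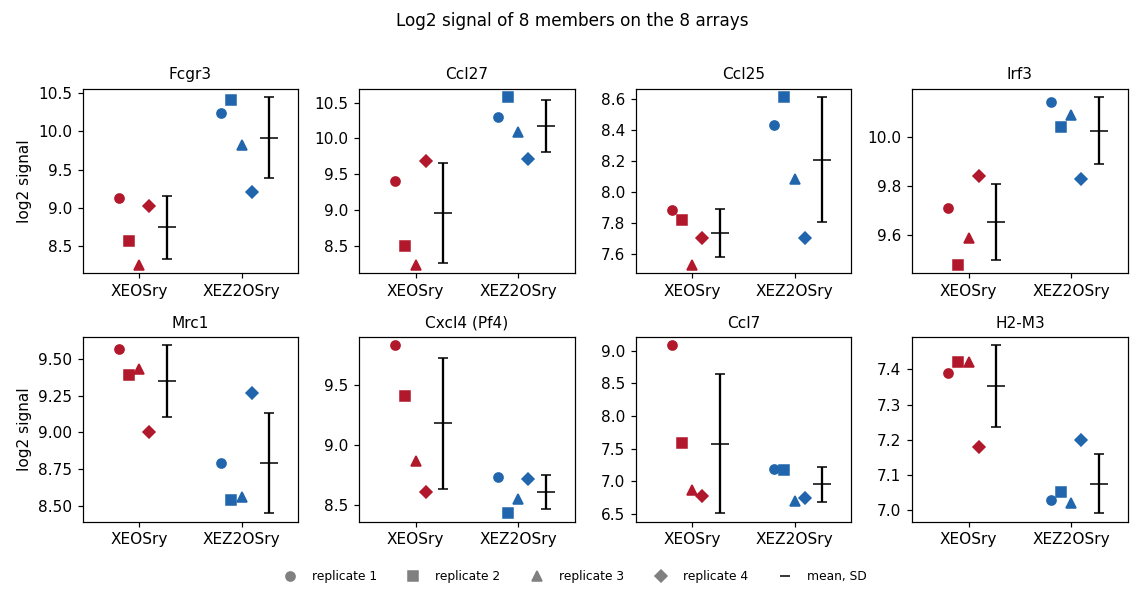
Log2 signal of 8 members in each male (points, shaped by replicate number; red XEOSry, blue XEZ2OSry) with the mean and SD of the 4 males of each genotype (black); each panel has its own vertical scale. The points of Fcgr3 and Ccl27 do not overlap between the genotypes, Ccl7 has a single high point of 9.08 in XEOSry, and male 4 of each genotype lies nearest to the other genotype for Mrc1 and H2-M3.

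The MHC class II genes and chaperones, 4 kept of 10, had a median difference of -0.12. XEZ2OSry male 4 stood apart for Cd74, H2-Aa and H2-Eb1. Cd74, the invariant chain that guides class II molecules through the cell, was at 6.61, 6.80, 7.07 and 6.77 in XEOSry and 6.48, 6.58, 6.77 and 8.10 in XEZ2OSry. The chain gene H2-Aa was detected only in XEZ2OSry male 4, at 7.42, where the other 7 arrays gave 6.29 to 6.53. H2-Eb1 was likewise detected only there, at 7.19, where the other arrays gave 6.42 to 6.66. The same male was the highest for H2-Ab1 at 7.97, with 7.54 to 7.79 on the other arrays, and by little for H2-DMa, which helps to load class II peptides, at 7.71 beside 7.65 in XEOSry male 3. The other class II members, H2-DMb2, H2-Ea, H2-Oa and H2-Ob, were not detected on any array and were not highest in that male. Between the genotypes Cd74 differed by -0.17 (SE 0.323, adjusted p = 0.749), and without XEZ2OSry male 4 the difference was 0.20. Ciita, the master activator of class II genes, was not detected on any array.

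H2-DMb1, the partner of H2-DMa, did not follow. Its signal was 7.37, 6.74, 6.70 and 7.28 in XEOSry and 7.46, 7.90, 7.44 and 6.95 in XEZ2OSry. XEZ2OSry male 4 was here the lowest of its genotype, and XEOSry males 2 and 3 were the lowest of all, as they were for Fcgr3 and Ccl27. The difference was -0.42 (SE 0.225, adjusted p = 0.273), and -0.26 without XEZ2OSry male 2. The sequences before H2-Aa, H2-Eb1 and H2-DMb1 are shown because the first pair was high in 1 male in which the last was not. Capitals mark the Y box of class II promoters (TGATTGG, read on either strand, its reverse complement being CCAATCA) and the PU.1 core.
H2-Aa, chr17:34287824-34288073, minus strand: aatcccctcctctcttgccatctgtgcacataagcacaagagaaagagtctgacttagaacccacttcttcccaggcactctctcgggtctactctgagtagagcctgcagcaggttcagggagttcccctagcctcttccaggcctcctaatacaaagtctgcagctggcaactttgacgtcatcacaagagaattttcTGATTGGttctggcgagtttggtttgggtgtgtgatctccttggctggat
H2-Eb1, chr17:34305617-34305866, plus strand: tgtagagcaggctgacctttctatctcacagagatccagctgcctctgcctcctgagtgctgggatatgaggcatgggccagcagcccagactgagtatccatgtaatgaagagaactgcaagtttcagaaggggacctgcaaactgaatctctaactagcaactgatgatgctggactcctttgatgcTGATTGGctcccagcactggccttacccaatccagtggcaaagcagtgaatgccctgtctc
H2-DMb1, chr17:34152941-34153190, plus strand: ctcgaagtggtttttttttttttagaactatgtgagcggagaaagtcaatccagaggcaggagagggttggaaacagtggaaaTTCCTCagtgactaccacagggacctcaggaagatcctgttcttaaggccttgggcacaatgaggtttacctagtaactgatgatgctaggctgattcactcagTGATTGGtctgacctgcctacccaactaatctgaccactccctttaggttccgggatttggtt
The Y box stood at a like distance from all 3 starts, at -50 before H2-Aa, -61 before H2-Eb1 and -63 before H2-DMb1, and it is found in 7.23% of all promoter windows of this length. H2-DMb1 had the PU.1 core in addition, at -167.

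**Figure D4:**
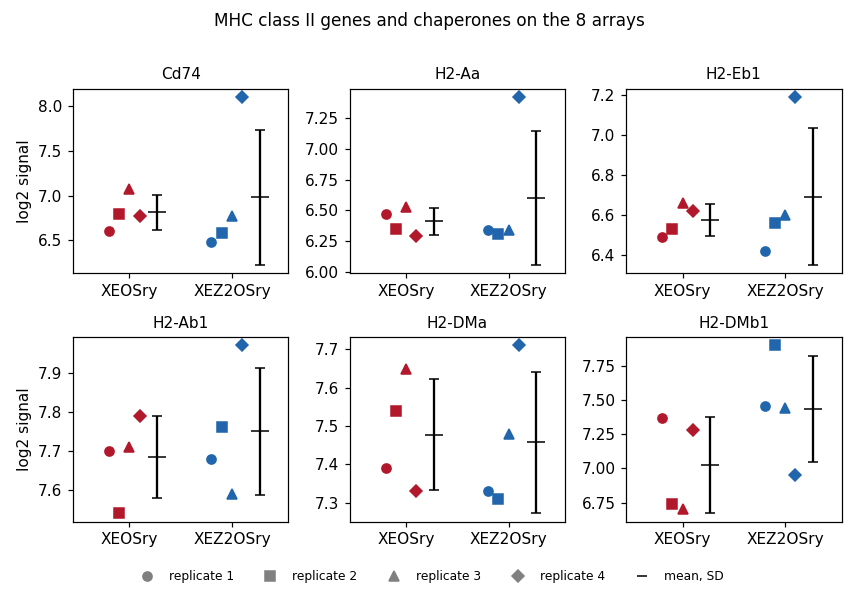
Log2 signal of 6 MHC class II genes and chaperones in each male (points, shaped by replicate number; red XEOSry, blue XEZ2OSry) with the mean and SD of 4 males (black); each panel has its own vertical scale. XEZ2OSry male 4 is the highest point for every gene except H2-DMb1, where it reads 6.95 and is the lowest of its genotype.

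XEZ2OSry male 4 also had the highest signals of S100a8, S100a9, Camp, Ngp, Ltf and Retnlg, genes of neutrophils, though not of the neutrophil granule gene Mpo, which was at 6.24 there and highest in XEOSry males 1 and 3 at 6.95 and 6.89. Ltf was not detected on any array. The calcium-binding protein gene S100a8 was at 9.32, 6.26, 10.57 and 6.20 in XEOSry and 7.27, 6.37, 6.20 and 11.82 in XEZ2OSry. XEOSry males 3 and 1 were the next highest, with Cd74 at 7.07 and 6.61. Of the 16 neutrophil and mast cell markers, 12 were in the table and 2 were kept, with the mean of the kept ones from 6.29 to 9.31 in XEOSry and from 6.38 to 10.03 in XEZ2OSry. Among 14 measured T and B lymphocyte markers this male was the highest for 4, Cd3e, Cd3g, Cd8a and Cd79b. Cd79b, a chain of the B cell receptor, was detected on 2 arrays and was at 7.25 there and at 6.22 to 6.72 on the others, while the B cell genes Ms4a1 and Cd22 were not highest there. Coro1a, an actin-binding protein of leukocytes, was at 7.66 there and at 6.68 to 7.28 on the others. The part of these genes in the class II values was not tested.

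MHC class I genes showed little difference. H2-K1, a classical class I gene of the mouse, was at 6.64 to 6.80 in XEOSry and 6.44 to 6.90 in XEZ2OSry (difference 0.01, adjusted p = 0.957). Of 25 class I genes, 5 were kept, all with the higher mean in XEOSry by 0.01 to 0.28 (median 0.12), though H2-K1 was at -0.07 with array weights. Many class I genes are near-identical copies, so that the kept signals may be shared between them. H2-M3, which presents N-formylated peptides, had the largest difference. Its signal was 7.39, 7.42, 7.42 and 7.18 in XEOSry and 7.03, 7.05, 7.02 and 7.20 in XEZ2OSry. Male 4 of each genotype stood between the others, and the ranges overlapped there alone. The difference was 0.28 (SE 0.0939, adjusted p = 0.133). The MHC-region gene H2-Ke6, which encodes a steroid dehydrogenase and no MHC molecule, differed by 0.02.

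Of 10 interferon regulatory factor symbols, 6 were kept, with a median difference of 0.11. Irf3, which answers viral nucleic acid by switching on type I interferon, was the one of the 6 with the lower mean in XEOSry. Its signal was 9.71, 9.48, 9.59 and 9.84 in XEOSry and 10.14, 10.04, 10.09 and 9.83 in XEZ2OSry. The ranges touched only at male 4 of each genotype. The difference was -0.37 (SE 0.111, adjusted p = 0.122). Irf9, the DNA-binding part of the interferon-activated complex, differed by 0.23 (adjusted p = 0.212), and Irf2bp1, a co-repressor that the pattern took by its name, by 0.02 (-0.08 with array weights). Of 18 interferon-induced genes 7 were kept (median difference 0.09), and the differences ran from -0.33 for Ifi27 (adjusted p = 0.506) to 0.19 for Ifitm2 (adjusted p = 0.654). With 1 male left out, Ifi27 ran from -0.64 (without XEOSry male 1) to -0.11 (without XEOSry male 3), and Ifitm2 was at -0.00 without XEZ2OSry male 1. Ifi27 was at 10.16 in XEOSry male 1, and at 8.57 to 9.80 on the other arrays. Ifitm3, which blocks virus entry and is also expressed in early germ cells, had means of 10.18 ± 0.131 in XEOSry and 10.06 ± 0.446 in XEZ2OSry (SD, n = 4 each).

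Lysozyme, an enzyme that macrophages and granulocytes secrete, varied widely between males of 1 genotype. Lyz2 was at 10.87, 10.56, 10.16 and 9.43 in XEOSry and 9.76, 9.67, 9.85 and 10.42 in XEZ2OSry. XEOSry male 1 was the highest and male 4 of the same genotype the lowest. The symbol Lyz, a RefSeq synonym of Lyz1, ran from 11.16 to 12.58 in XEOSry and from 11.18 to 12.25 in XEZ2OSry, with the same males at the top and bottom of XEOSry. Lyz1 and Lyz2 are near-identical neighbours, and a further symbol for Lyz2, Lyzs, was not detected on any array although its signal ran from 7.55 to 8.73, so that the levels of the single copies are uncertain. The differences were 0.33 for Lyz2 (adjusted p = 0.497) and 0.34 for Lyz (adjusted p = 0.525). Without XEOSry male 1 they were 0.12 and 0.13, and without XEOSry male 4 both were 0.61.

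Toll-like receptors were kept for 2 of 10. Tlr2, which binds bacterial lipoproteins, was at 7.32 in XEOSry male 1 and at 6.65 to 6.93 on the other arrays (difference 0.22, adjusted p = 0.301; 0.10 without that male). Tlr13, a sensor of bacterial ribosomal RNA in the mouse, differed by 0.06 (adjusted p = 0.695; 0.01 without XEOSry male 1). It is one of 3 X-linked members, and the others, Tlr7 and Tlr8, were detected on 1 and 0 arrays.

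Seen by animal, a few arrays held many of the highest and lowest values of the kept members. XEOSry male 1 was the highest array for 12 of the 45 (26.7%), while it was the highest for 6.1% of all kept genes. It was the lowest for none, beside 5.91% of all kept genes. These 12 included Mrc1, Cd68, Cxcl4, Ccl7, Cxcl16, Lyz2 and Tlr2. XEZ2OSry male 4 was the highest for 10 (22.2%, against 7.52%), among them Cd74, Csf1, Ifitm3 and Irf8. XEOSry male 3 was also the highest for 10 (22.2%), near its 23.8% of all kept genes. XEZ2OSry male 2 was the lowest for 23 (51.1%, against 30.8%). It was the highest for 4 (8.89%, against 21.7%), which were Fcgr3, Ccl27, Ccl25 and H2-DMb1. The males at the extremes thus came from both genotypes.

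**Figure D5:**
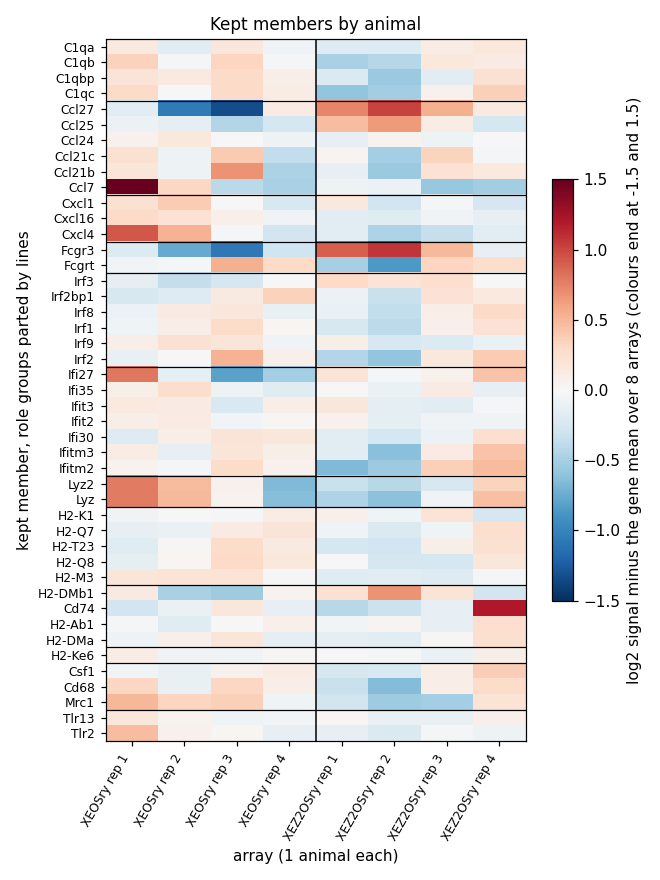
Colour gives the log2 signal of each of the 45 kept members (rows, grouped by role) in each male (columns, XEOSry left of the line and XEZ2OSry right) minus the gene's mean over 8 arrays. XEZ2OSry male 2 is blue for 23 members that are lowest there and red for Fcgr3, Ccl27, Ccl25 and H2-DMb1, and XEZ2OSry male 4 is red for Cd74.

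Other genes of the same cells and pathways gave no call either. Of 57 listed symbols of further macrophage and leukocyte genes, some of them names of the same gene, 51 were in the table. Of these, 28 were kept and 0 passed, with a median difference of 0.23. The genotypes did not overlap for 2 of them, Csf2ra, a receptor chain for granulocyte-macrophage colony stimulating factor (difference 0.31, adjusted p = 0.126), and Stab1, a scavenger receptor of tissue macrophages (difference 0.35, adjusted p = 0.133), both higher in every XEOSry male. This is 7.14% of the 28, beside 6.34% of all kept genes. Stab1 was detected on 4 XEOSry arrays and 1 XEZ2OSry array, and so met the detection condition through the genotype where it was higher. Itgam, Ptprc and Cd163, common macrophage or leukocyte markers, were not detected on any array. Others of the list were: Emr1, now named Adgre1, on 6 arrays (difference 0.21, adjusted p = 0.273 in limma), Trem2 on 7, and Tyrobp, Laptm5 and Cd53 on all 8. The largest differences of the list were -0.62 for Cd52 and 0.56 for Lgmn, a lysosomal protease. Cd52 was at -0.28 without XEZ2OSry male 3, and Lgmn at 0.32 without XEZ2OSry male 2. The 28 kept genes had a mean signal of 7.73 to 7.97 in the XEOSry males and of 7.47 to 7.99 in the XEZ2OSry males, highest in male 4 of the latter.

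In Toll-like receptor signalling, 21 of 31 listed genes were kept and 0 passed (median difference 0.15). Myd88, the adaptor of most Toll-like receptors, was at 9.66, 9.25, 9.69 and 9.94 in XEOSry and 10.02, 10.20, 10.13 and 10.18 in XEZ2OSry. Every XEOSry male was below every XEZ2OSry male. The difference was -0.50 (adjusted p = 0.121), from -0.60 without XEOSry male 4 (adjusted p = 0.0472) to -0.37 without XEOSry male 2 (adjusted p up to 0.302 with 1 male left out). Irak3, which restrains this pathway, was at 8.73, 7.85, 7.84 and 9.0 in XEOSry and 9.46, 10.07, 9.49 and 8.79 in XEZ2OSry, lowest in the XEOSry males 2 and 3 that were also lowest for Fcgr3. Its difference was -1.10 (adjusted p = 0.122), from -1.32 without XEZ2OSry male 4 (adjusted p = 0.0481) to -0.89 without XEZ2OSry male 2 (adjusted p up to 0.302). Tirap and Traf6 lay the other way, higher in every XEOSry male by 0.28 (adjusted p = 0.15) and 0.21 (adjusted p = 0.187) on the mean. They are 9.52% of the 21, beside 6.34% of all kept genes, and Myd88 is 4.76%, beside 4.58%. Traf6 was detected on only 4 of the 8 arrays, 2 of each genotype.

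In interferon signalling outside the rule, 15 of 38 listed symbols were kept and 0 passed (median difference 0.08). Dhx58, a regulator of the cytoplasmic RNA sensors, was at 7.04, 6.65, 6.59 and 7.04 in XEOSry and 7.74, 8.29, 7.51 and 7.02 in XEZ2OSry. The genotypes overlapped at XEZ2OSry male 4 alone, and the order of the males was close to that of Fcgr3. Its difference was -0.81 (adjusted p = 0.125), from -1.01 without that male (adjusted p = 0.0393) to -0.59 without XEZ2OSry male 2 (adjusted p up to 0.302). Ifngr2, a chain of the interferon gamma receptor, differed by 0.44 (adjusted p = 0.143, and 0.0483 to 0.33 with 1 male left out), and Igtp, an interferon-induced GTPase, was higher in every XEOSry male (difference 0.20, adjusted p = 0.194), as the 1 such gene of the 15 (6.67%, beside 6.34% of all kept genes).

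For antigen processing, 13 of 26 listed symbols were kept and 0 passed (median difference 0.12). Ctsl, the cathepsin that trims the invariant chain in the thymus and is also made by Sertoli cells, was higher in every XEOSry male (difference 0.28, adjusted p = 0.122; 7.69% of the 13, beside 6.34% of all kept genes), and Calr, a chaperone of class I assembly, differed by 0.38 (adjusted p = 0.191). The chemokine receptor list held 30 symbols, some of them names of the same gene and some of ligands. Of these, 23 were in the table and 4 were kept. Differences reached 0.18 for Cx3cr1, the fractalkine receptor of macrophages (adjusted p = 0.413 in limma; 0.09 without XEOSry male 3). The fractalkine gene Cx3cl1, a ligand among the kept, differed by 0.11. Of 15 T and B lymphocyte markers 3 were kept, and Cd3d differed by -0.59 (adjusted p = 0.143) and Lck by 0.48 (adjusted p = 0.196).

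Markers of the other cells of the testis were set beside these values. The kept Sertoli markers, 12 of them, had a median difference of 0.24, the 8 peritubular and fibroblast markers 0.32, the 5 endothelial markers 0.09, the 5 Leydig markers 0.02, the 8 spermatogonial markers 0.21 and the 3 erythroid markers -0.10, and 0 genes of these lists passed. The mean of the kept Sertoli markers ran from 10.54 to 10.90 in XEOSry and from 10.06 to 10.78 in XEZ2OSry, lowest in XEZ2OSry male 2. This male was also lowest for the peritubular and fibroblast (8.47), endothelial (6.99) and spermatogonial (8.18) marker means, though not for the Leydig and erythroid ones. It was the lowest array for 23 of the 45 kept members (51.1%) and for 30.8% of all kept genes. The part of these cells in the members' values was not tested.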

How the data were processed

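Whole testis RNA of 8 males at 17.5 dpp, 4 per genotype, was hybridized to single-colour Illumina mouse whole-genome BeadChips, 1 array per male, and genotypes were taken from the sample labels. Analysis started from the gene-level log2 values deposited by the authors, who had quantile normalized them. BeadStudio is the software named in the methods, and GenomeStudio 2011.1 that in the submitters' notes. The authors also deposited linear signal intensities called non-normalized, whose array medians are nearly equal, and a series value table, both used as alternatives only. Each signal has a deposited detection p-value, which does not follow the signal in all genes. The genome build of the probes is not given in the sources used here.

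Genotypes were compared in limma 3.58.1 (R 4.3.3; lmFit, then eBayes, two-sided) without covariates, and p-values were adjusted by Benjamini and Hochberg across all 8324 kept genes, not across the members, with 0.05 as the threshold. P-values measure the spread between males. The fit was tested on simulated data. Tables and plots were made with pandas 2.3.3, numpy 2.4.6 and matplotlib 3.10.9 (Python 3.11.15).

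The members and all lists were chosen with earlier results of these data known. Members named are kept ones whose genotypes do not overlap, the member of highest signal and the 2 with the largest differences in each role, and a set of defining genes, with the 2 largest differences of each immune comparison list. Ccl25, Irf9, Csf2ra, Stab1, Ctsl, Igtp, Tirap, Traf6, Cxcl1, Irf2bp1, Ccl21b, Ccl21c, Cd79b, Coro1a, Emr1, Trem2, Tyrobp, Laptm5 and Cd53, other genes given as not detected, and the motifs were chosen after their values were seen. S100a8, S100a9, Camp, Ngp, Ltf, Retnlg, Mpo, Cd3e, Ms4a1, Cd22, H2-DMa and Irf8 were named outside these rules, for their values in XEZ2OSry male 4. H2-D1 was not found in the table. Array symbols were matched to RefSeq (GRCm38.p6) by symbol for 124 members and by synonym for 5, and the promoter sequences are from RefSeq. The alternatives, 18 in all, covered the detection filter, the source table, background correction, centring, a replicate block, an intensity trend, array weights and leaving out each male. In the table called non-normalized, 4 columns hold no values.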

Additional observations from a re-analysis of the deposited data

Results flagged for a closer look

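In 4 of 104 groups of 4 males examined (3.85%), 1 male lay far from the other 3 of its genotype, by the gap to its neighbour over the whole range of the group. Chance gives about 5%. H2-M3 was at 7.18 in XEOSry male 4, where the other XEOSry males gave 7.39 to 7.42, and at 7.20 in XEZ2OSry male 4, where the others gave 7.02 to 7.05. Ifit3, an interferon-induced antiviral gene, was at 6.68 in XEOSry male 3, with 7.01 to 7.05 in the others. H2-Aa was at 7.42 in XEZ2OSry male 4, with 6.31 to 6.34 in the others of that genotype.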

How the results depend on the processing

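With array weights, 2 members passed with the higher mean in XEOSry (2.45% of all kept genes did) and 3 with the lower (5.07%). There, 3 members exceeded 1.5-fold higher. That last count was 0 with detection required on all 8 arrays and 2 after normexp correction with an offset of 50. Leaving out each male in turn gave 0 to 1 members past the threshold higher in XEOSry, beside 0.012% to 1.68% of all kept genes. It gave 0 to 2 lower, beside 0.024% to 4.79%, and 0 to 5 members over 1.5-fold higher. The share of all kept genes over 1.5-fold higher was counted with the main settings only (0.973%). H2-K1 (-0.07) and Irf2bp1 (-0.08) changed sign with array weights. On leaving out 1 male, signs also changed for Cd74 (-0.34 to 0.20), Csf1 (-0.07 to 0.13), H2-Ab1 (-0.12 to 0.01), H2-K1 (-0.07 to 0.08), H2-Ke6 (-0.02 to 0.05), Ifitm2 (-0.00 to 0.37), Ifitm3 (-0.06 to 0.29), Cx3cl1 (-0.03 to 0.26), Ccl21b (-0.05 to 0.33), Ccl21c (-0.07 to 0.23) and Irf2bp1 (-0.09 to 0.11). The cause of these shifts was not tested. The other alternatives that kept all males called 0 members. Median differences of the members were 0.03 with no filter on dim genes and 0.11 to 0.14 in the other alternatives that kept all males.

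The replicate numbers are shared between the genotypes, but nothing in the labels pairs the males. With the replicate number as a block, 1 gene of all passed and 0 members, and the median difference was 0.12. Deviations of same-numbered males correlated at 0.426, -0.232, 0.327 and -0.421. No XEOSry male correlated best with its own number, and of the XEZ2OSry males only 1 and 3 did. The highest correlation, 0.747, was between XEOSry male 3 and XEZ2OSry male 4.

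Of the 129 members, 84 did not meet the detection condition and were not compared. The number of arrays limits the precision.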
